A study of Homo sapiens with 27 samples.

Results

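Glycolysis and hypoxia response genes were followed in 3 lines of breast cancer cells in which TLE3 or FOXA1 had been silenced. The 36 genes were chosen by name from 32719 genes listed in at least 1 of the 6 deposited tables. No measured value entered the rule of choice, but earlier results of these data were known when it was made. They comprise 17 enzymes of the glycolytic pathway and lactate step, 6 regulators and transporters of glycolysis, the hypoxia factor gene HIF1A with 2 of its hydroxylase genes, and 10 known targets of the hypoxia response. All except CA9 were listed in all 6 tables, which leaves 35.

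Gene expression was measured by RNA sequencing of total RNA from T47D, an estrogen receptor positive luminal line, SKBR3, a line with an amplified ERBB2 gene, and MDA-MB-453, a line that expresses the androgen receptor. Each line was reverse transfected with a pool of siRNAs to TLE3 (siTLE3), a pool to FOXA1 (siFOXA1) or a non-targeting siRNA (siNS), and RNA was collected 48 h later. TLE3 belongs to the Groucho corepressors, which bind DNA only through partners, and FOXA1 opens chromatin for other factors in luminal cells. The 27 libraries form 9 groups with n = 3 libraries each, so every siRNA group is 1 cell line under 1 pool, and effects of a pool on other genes cannot be told apart from effects of its target. The labels call the replicates biological without saying whether they were separate cultures, so p-values measure only the spread between these libraries. No label gives an oxygen level.

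Library totals ran from 15968223 to 26208135 counted reads. Under siTLE3 the TLE3 level went from 128 to 36.3 CPM (T47D), 119 to 34.7 CPM (SKBR3) and 148 to 30.1 CPM (MDA-MB-453), and under siFOXA1 the FOXA1 level went from 366 to 81.1 CPM, 411 to 85.8 CPM and 744 to 133 CPM in these lines, where CPM is the read count relative to TMM-scaled library size. FOXA1 also rose in T47D under siTLE3 (366 to 533 CPM), and in SKBR3 siTLE3 it was higher in every library than in every control (411 to 540.0 CPM) without passing (edgeR adjusted p = 0.135). TLE3 fell in MDA-MB-453 under siFOXA1 (148 to 85.5 CPM) and rose in T47D (128 to 150.0 CPM). Each library carries the number in its column header, which differs from the label's number in the siNS groups of T47D and MDA-MB-453 and in T47D siTLE3. SKBR3 siNS 3 and SKBR3 siTLE3 1 stood apart from their groups: the SD over genes of the log2 difference from the other 2 libraries was 0.523 and 0.433, against 0.102 to 0.295 in the other libraries. Luminal keratin genes were high in all 3 lines, while CDH1 was at 0.444 CPM and ESR1 at 0.927 CPM in SKBR3 controls and ESR1 at 0.35 CPM in MDA-MB-453 controls. Of 14 markers of fibroblasts, endothelium and leukocytes only COL1A1 exceeded 10 CPM in controls, at 27 to 164 CPM.

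Glycolysis turns glucose into pyruvate, and lactate dehydrogenase reduces pyruvate to lactate when it is not burnt in mitochondria. When oxygen falls, the prolyl hydroxylases that mark HIF1A for degradation lose activity, and the stabilised factor raises glucose transporters, glycolytic enzymes, pyruvate dehydrogenase kinases and secreted factors such as VEGFA. HIF1A is controlled mainly at the protein level, which RNA does not show. Many tumour lines keep glycolysis high in the presence of oxygen. In these bulk samples, fewer cells expressing a gene and less RNA per cell cannot be told apart.

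In hg19, the build of the deposited tables, ADM (ENSG00000148926) lies at chr11:10326227-10328944 and PDK3 (ENSG00000067992) at chrX:24483338-24557954 on the plus strand, SLC2A1 (ENSG00000117394) at chr1:43391052-43424530 on the minus strand, HK2 (ENSG00000159399) at chr2:75061108-75120486 and PFKFB3 (ENSG00000170525) at chr10:6186881-6277495 on the plus strand, and EGLN3 (ENSG00000129521) at chr14:34393437-34931980 and P4HA2 (ENSG00000072682) at chr5:131527531-131631008 on the minus strand. All 7 are protein-coding. The 250 bases upstream of the annotated start are shown for ADM, the member with the largest change against control, for PDK3, which fell in each comparison with siNS, and for SLC2A1, which moved in opposite directions in different lines. They are RefSeq sequences of GRCh38.p14, 5′ to 3′ on the gene's strand, at chr11:10304823-10305072 (plus), chrX:24465036-24465285 (plus) and chr1:42958869-42959118 (minus). Capitals mark the core of the hypoxia response element, ACGTG or GCGTG on either strand, where overlapping matches are marked as 1 run and the word CACGTG, which reads the same on both strands, holds 2 matches.
ADM: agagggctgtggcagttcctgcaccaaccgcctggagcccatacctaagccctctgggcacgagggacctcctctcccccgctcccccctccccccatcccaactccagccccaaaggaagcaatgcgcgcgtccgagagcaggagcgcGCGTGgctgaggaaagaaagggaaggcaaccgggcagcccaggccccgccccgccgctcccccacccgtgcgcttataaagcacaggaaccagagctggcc
PDK3: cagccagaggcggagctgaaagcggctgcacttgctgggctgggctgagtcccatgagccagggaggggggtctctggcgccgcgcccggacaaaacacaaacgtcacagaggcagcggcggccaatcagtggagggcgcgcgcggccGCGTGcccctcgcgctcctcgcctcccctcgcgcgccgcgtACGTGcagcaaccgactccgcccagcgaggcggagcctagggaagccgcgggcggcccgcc
SLC2A1: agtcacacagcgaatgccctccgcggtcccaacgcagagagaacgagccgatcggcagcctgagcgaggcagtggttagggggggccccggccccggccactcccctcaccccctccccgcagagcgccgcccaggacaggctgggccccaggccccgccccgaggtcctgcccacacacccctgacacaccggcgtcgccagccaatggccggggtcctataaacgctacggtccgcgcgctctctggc
ADM had 1 core in this window, PDK3 had 2 and SLC2A1 had none. Of 36 members, 33 matched the RefSeq table, with 61 annotated starts. A core lay in 36 of the 61 windows (59.0%), against 43.2% of the 35116 windows of all genes. The FOXA motif TGTTTAC was in none of the 61, against 3.0% of all windows. A match describes these letters in this window and is not a bound site.

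Levels of the genes in control cells differed between the lines, as the plot of control levels shows. Per kilobase of gene length, GAPDH was at 533 ± 25.6 CPM per kb (mean ± SD, n = 3) in T47D, 1810 ± 472 in SKBR3 and 526 ± 26.8 in MDA-MB-453, among the highest of the members. ALDOA, an aldolase, was at 672 ± 27, 1060 ± 287 and 1040 ± 50.7 CPM per kb in the same order. At the low end, ANKRD37, a hypoxia target, was at 0.863 ± 0.233, 0.928 ± 0.142 and 1.09 ± 0.280 CPM per kb. CA9, a carbonic anhydrase and a marker of hypoxia, had at most 10 reads in any T47D or MDA-MB-453 library, was not listed in the SKBR3 tables, and was tested nowhere.

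**Figure D1:**
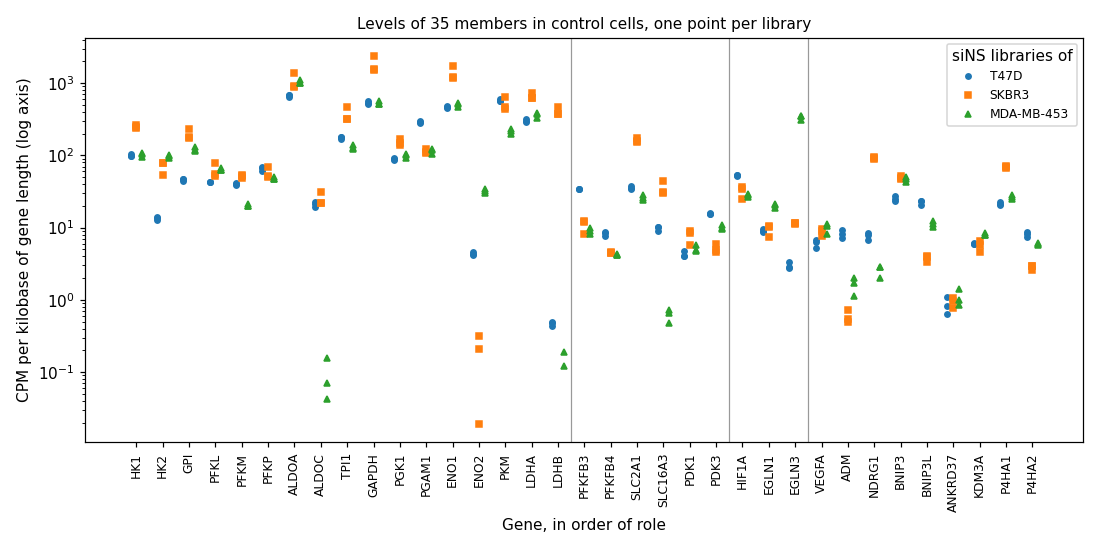
Level of 35 members in siNS libraries, as CPM per kilobase on a log axis, by gene in order of role (glycolytic enzymes, regulators and transporters, HIF1A and hydroxylases, hypoxia targets). Each point is 1 library, grey lines part the 4 roles, and a library with no read has no point. ALDOC, LDHB, ENO2, SLC16A3, EGLN3 and NDRG1 spread widest between the lines.

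Between control lines, 9 members were higher and 20 lower in T47D than in SKBR3 at edgeR adjusted p under 0.05, and 67.3% of all genes tested were called (34.7% higher, 32.5% lower). T47D against MDA-MB-453 gave 17 higher and 14 lower (76.4% of all genes, 38.9% higher and 37.5% lower), and SKBR3 against MDA-MB-453 gave 16 higher and 9 lower (66.4%, 33.5% higher and 32.9% lower), each of 35 tested. The widest contrasts were in 3 isozyme genes. LDHB, the lactate dehydrogenase subunit of heart, had 569, 565 and 726 CPM in the SKBR3 controls, 0.728, 0.751 and 0.667 CPM in T47D and 0.291, 0.184 and 0 CPM in MDA-MB-453. Every SKBR3 library was far above all others, with a log2 difference T47D minus SKBR3 of -9.74 (SE 0.18) (edgeR adjusted p = 4.9e-08). ALDOC, the brain aldolase, had 38.6, 42 and 44.3 CPM in T47D, 43.9, 43 and 61.3 CPM in SKBR3 and 0.0830, 0.138 and 0.310 CPM in MDA-MB-453. Only MDA-MB-453 was near 0 among the 3 lines. ENO2, the neuronal enolase, had 96.9, 90.4 and 84.7 CPM in MDA-MB-453, 11.8, 12.2 and 12.9 CPM in T47D and 0.586, 0.900 and 0.0545 CPM in SKBR3. The 3 lines did not overlap. In MDA-MB-453 controls LDHB had 0 to 7 reads per library and ALDOC 2 to 6, and both passed the filter in pairs with that line only through the other line, so their calls there were fixed by the filter and no fold is given. ENO2 had 1 to 17 reads per SKBR3 control library and passed the filter in pairs with SKBR3 only through the other line. No fold is given for it there either.

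Hypoxia genes also set the lines apart. EGLN3, a prolyl hydroxylase that is itself a hypoxia target, had 882, 987 and 1006 CPM in MDA-MB-453, 32.8, 33.1 and 32.4 CPM in SKBR3 and 7.91, 9.56 and 8.14 CPM in T47D. MDA-MB-453 was far above both other lines, with a T47D minus MDA-MB-453 log2 difference of -6.84 (SE 0.10) (edgeR adjusted p = 2.36e-15). SLC16A3, the lactate exporter of glycolytic cells, had 145, 149 and 214 CPM in SKBR3, 49, 43 and 49.1 CPM in T47D and 3.49, 2.30 and 3.15 CPM in MDA-MB-453. Its log2 difference T47D minus MDA-MB-453 was 3.95 (SE 0.14) (edgeR adjusted p = 1.01e-11). ADM, the vasodilator peptide adrenomedullin, had 13.4, 15.4 and 17.5 CPM in T47D and 1.01, 1.38 and 0.926 CPM in SKBR3, a log2 difference of 3.80 (SE 0.22) (edgeR adjusted p = 2.19e-06). Every T47D control library was above those of the other lines, and MDA-MB-453 lay between at 3.74, 2.12 and 3.21 CPM.

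Both siRNAs moved many members in T47D and MDA-MB-453, and few in SKBR3 with all libraries included. In T47D under siTLE3, 4 members rose, 20 fell and 11 did not pass of 35 tested, while 51.9% of all genes tested were called (25.3% higher, 26.6% lower). Under siFOXA1 in T47D, 9 rose, 16 fell and 10 did not pass (52.8% of all genes called, 26% higher and 26.8% lower). SKBR3 under siTLE3 had none risen, 4 fallen and 31 that did not pass (5.66%, 3.67% higher and 1.99% lower), and under siFOXA1 1 risen, 9 fallen and 25 that did not pass (19.1%, 10.4% higher and 8.75% lower). MDA-MB-453 under siTLE3 had 5 risen, 10 fallen and 18 that did not pass of 33 tested (32%, 15.7% higher and 16.3% lower), and under siFOXA1 11 risen, 11 fallen and 11 that did not pass (47.1%, 23.4% higher and 23.7% lower). In all 6 comparisons the siRNA and siNS libraries of each called member did not overlap. Overlap was not counted over all called genes, so whether this is particular to the members was not tested. CA9 failed the filter on low counts in T47D and MDA-MB-453 and was not listed for SKBR3. ALDOC and LDHB failed the filter in MDA-MB-453.

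Median log2 fold changes of the tested members were -0.22 and -0.19 in T47D, -0.24 and -0.20 in SKBR3, and -0.07 and -0.07 in MDA-MB-453 under siTLE3 and siFOXA1, beside medians over all genes from -0.02 to 0.01. The T47D siTLE3 median was -0.35 without siTLE3 4, the SKBR3 siTLE3 median was -0.14 without siTLE3 1, -0.15 without siNS 3 and -0.08 without SKBR3 siNS 3 and siTLE3 1. The SKBR3 siFOXA1 median was -0.13 without siNS 3. The MDA-MB-453 siTLE3 median was -0.10 without siNS 2 and -0.05 without siNS 4. The MDA-MB-453 siFOXA1 median ranged from -0.13 without siNS 2 to 0.0013 without siFOXA1 2, with -0.03 without siFOXA1 3, -0.02 without siNS 1 and -0.04 without siNS 4. The number of SKBR3 members called under siTLE3 was 0 without siTLE3 2, where 107 of 14796 genes tested were called. It was 1 without siNS 2 (269 of 14793 genes) and 2 without siNS 1 (302 of 14821 genes). Without both libraries that stood apart it was 16 (6 risen, 10 fallen), where 4161 of 14514 genes were called. For siFOXA1 in SKBR3 the number was 6 without any 1 of the 3 siFOXA1 libraries, where 1266 to 1292 of all genes were called. It was 21 (4 risen, 17 fallen) without siNS 3, where 6675 of 14776 genes were called.

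**Figure D2:**
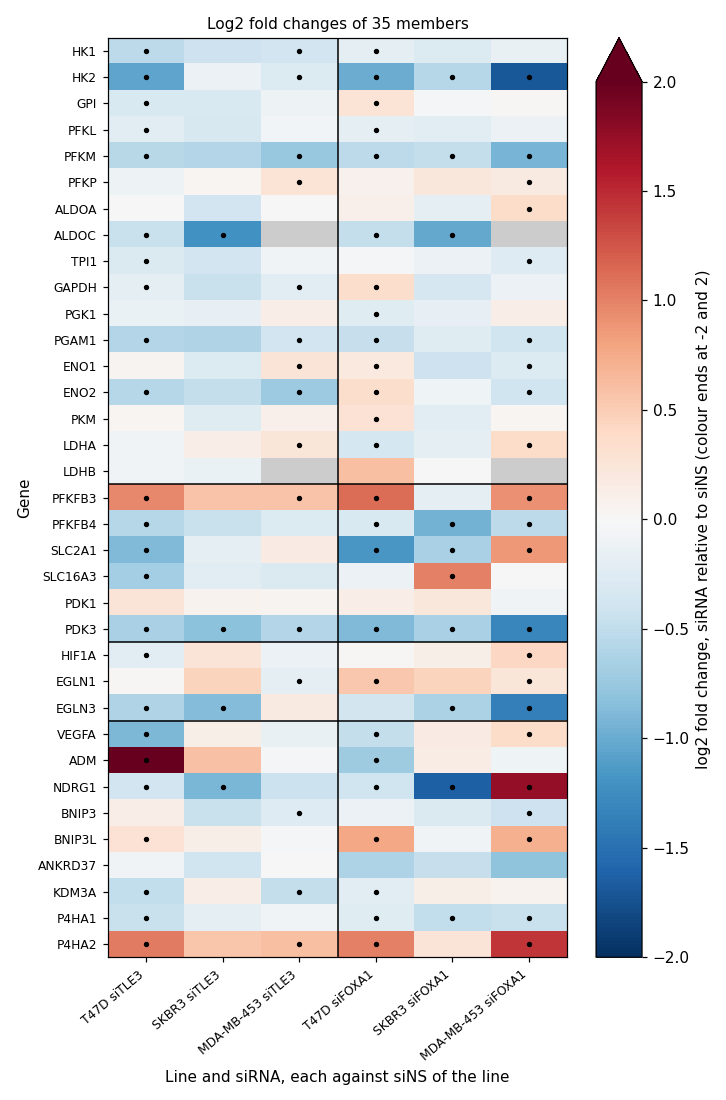
Log2 fold change of 35 members (rows, in order of role, black lines between roles) in 6 comparisons with siNS (columns). Colour gives the log2 fold change, red for higher and blue for lower in siRNA libraries, a black dot marks edgeR adjusted p under 0.05, and grey marks a gene not tested. PDK3 is blue with a dot in each column, and ADM in T47D siTLE3 lies past the end of the colour scale at 2.60.

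Of the 17 glycolytic enzymes tested in T47D, none rose and 10 fell under siTLE3, while 5 rose and 8 fell under siFOXA1. SKBR3 had none risen with 1 fallen under siTLE3 and 3 fallen under siFOXA1, and under each siRNA 3 rose and 6 fell of the 15 tested in MDA-MB-453. The shares called were 58.8% and 76.5% in T47D, 5.88% and 17.6% in SKBR3 and 60% and 60% in MDA-MB-453 for siTLE3 and siFOXA1, beside 51.9% and 52.8%, 5.66% and 19.1%, and 32% and 47.1% of all genes. HK2, the inducible hexokinase that phosphorylates glucose, fell in 5 of the 6 comparisons. Its levels in T47D were 77.4, 74.1 and 80.6 CPM with siNS, 38.7, 38.2 and 33.9 CPM with siTLE3 and 41.4, 39.9 and 35.4 CPM with siFOXA1. All T47D silenced libraries lay below all controls, with log2 fold changes of -1.06 (SE 0.07) and -0.998 (SE 0.08) (edgeR adjusted p = 4.92e-08 and 2.4e-07). In MDA-MB-453 the same gene had 559.6, 537 and 578 CPM with siNS, 460.5, 474 and 466 CPM with siTLE3 and 163, 189 and 167 CPM with siFOXA1. The 3 groups were apart, siFOXA1 lowest, with log2 fold changes of -0.27 (SE 0.06) and -1.69 (SE 0.07) (edgeR adjusted p = 0.00362 and 8.88e-13). SKBR3 had 452, 446 and 306 CPM with siNS and 286, 257 and 259.7 CPM with siFOXA1, where siNS 3 was the low control. The log2 fold change of -0.56 (SE 0.17) passed at edgeR adjusted p = 0.0492, but adjusted p was 0.121 to 0.173 without any 1 library other than siNS 3. HK1, the hexokinase found in most tissues, fell in T47D under both siRNAs, with log2 fold changes of -0.53 (SE 0.06) and -0.19 (SE 0.06), and in MDA-MB-453 under siTLE3, with a log2 fold change of -0.39 (SE 0.07); the T47D siFOXA1 call was lost without any 1 of 4 libraries.

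PFKM, the muscle-type phosphofructokinase, fell in T47D and MDA-MB-453 under both siRNAs and in SKBR3 under siFOXA1. In MDA-MB-453 it had 75.4, 70.8 and 71.3 CPM with siNS, 42.1, 43.5 and 44 CPM with siTLE3 and 38.7, 35.5 and 39.8 CPM with siFOXA1. Both silenced groups lay below the controls without overlap, with log2 fold changes of -0.76 (SE 0.07) and -0.93 (SE 0.07) (edgeR adjusted p = 1.85e-06 and 6.61e-09). Log2 fold changes were -0.56 (SE 0.06) and -0.53 (SE 0.07) in T47D and -0.47 (SE 0.09) in SKBR3 under siFOXA1, the last lost without any 1 siFOXA1 library (adjusted p 0.0548 to 0.069). PFKM overlaps SENP1 on the other strand, and SENP1 also fell in T47D and MDA-MB-453; since the strand setting of the counting is not given in the sources used here, reads of the 2 genes cannot be told apart where they overlap. PFKP, the platelet-type enzyme, had 128, 128 and 138 CPM with siNS and 160.4, 157 and 161 CPM with siTLE3 in MDA-MB-453, a rise of 0.27 (SE 0.06) with no overlap (edgeR adjusted p = 0.00351).

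ALDOC fell in both lines that express it. T47D had 38.6, 42 and 44.3 CPM with siNS, 28.3, 30.7 and 33.1 CPM with siTLE3 and 31.2, 28.5 and 30.8 CPM with siFOXA1, with log2 fold changes of -0.44 (SE 0.08) and -0.47 (SE 0.08). SKBR3 had 43.9, 43 and 61.3 CPM with siNS, 19.2, 21.9 and 22.2 CPM with siTLE3 and 24.1, 24 and 23.1 CPM with siFOXA1. Every silenced SKBR3 library was lower than the lowest control, with log2 fold changes of -1.21 (SE 0.18) and -1.03 (SE 0.15) (edgeR adjusted p = 0.00852 and 0.00269). The siTLE3 call had adjusted p = 0.0604 without siTLE3 2. ENO2 had 96.9, 90.4 and 84.7 CPM with siNS and 54.9, 51.8 and 58.6 CPM with siTLE3 in MDA-MB-453, and all silenced libraries were lower. Its log2 fold change was -0.73 (SE 0.07) (edgeR adjusted p = 6.4e-06), and the ubiquitous enolase ENO1 rose in the same cells, from 1057, 1165 and 1197 CPM to 1337, 1400 and 1365 CPM, a rise of 0.25 (SE 0.07) (edgeR adjusted p = 0.00879). Under siFOXA1 both enolases fell in MDA-MB-453, ENO2 with a log2 fold change of -0.40 (SE 0.07) and ENO1 of -0.28 (SE 0.07), and both rose in T47D, with 0.35 (SE 0.10) and 0.20 (SE 0.07), the T47D ENO1 call lost without siNS 3 or siNS 4. In T47D siTLE3 ENO2 fell, with a log2 fold change of -0.56 (SE 0.13), and ENO1 did not pass. ALDOC overlaps RP11-192H23.4 and ENO2 overlaps LRRC23, each on the same strand, whose counted reads did not pass in the comparisons where ALDOC or ENO2 was called.

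The abundant enzymes moved little and in both directions. GAPDH, a housekeeping dehydrogenase of the pathway, fell in T47D under siTLE3, with a log2 fold change of -0.19 (SE 0.07), a call lost without any 1 of 4 libraries, and rose under siFOXA1, with a log2 fold change of 0.36 (SE 0.07). It also fell in MDA-MB-453 under siTLE3, with a log2 fold change of -0.21 (SE 0.06), and that call too was lost without any 1 of 4 libraries. LDHA, which makes lactate, fell in T47D under siFOXA1, with a log2 fold change of -0.35 (SE 0.08) and rose in MDA-MB-453, with a log2 fold change of 0.24 (SE 0.07) under siTLE3 and 0.37 (SE 0.07) under siFOXA1, the siTLE3 call lost without siTLE3 2 (adjusted p = 0.0835). PGAM1, a phosphoglycerate mutase, fell in T47D and MDA-MB-453 under both siRNAs, from -0.59 (SE 0.07) in T47D siTLE3 to -0.38 (SE 0.07) in MDA-MB-453 siTLE3; processed copies of it held reads equal to at most 2.8% of its own. GPI, PFKL, TPI1, ALDOA, PGK1 and PKM were each called in 1 or 2 comparisons, with log2 fold changes between -0.31 (SE 0.07) for GPI in T47D siTLE3 and 0.37 (SE 0.07) for ALDOA in MDA-MB-453 siFOXA1. LDHB passed in none of the 4 comparisons where it was tested.

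Of the 6 regulators and transporters, 1 rose and 4 fell in T47D under siTLE3, and 1 rose and 3 fell under siFOXA1. Counts of risen and fallen were 0 and 1 in SKBR3 siTLE3, 1 and 3 in SKBR3 siFOXA1, 1 and 1 in MDA-MB-453 siTLE3, and 2 and 2 in MDA-MB-453 siFOXA1. Of these genes 83.3% and 66.7% were called in T47D, 16.7% and 66.7% in SKBR3 and 33.3% and 66.7% in MDA-MB-453 under siTLE3 and siFOXA1, beside 51.9% and 52.8%, 5.66% and 19.1%, and 32% and 47.1% of all genes. PDK3, a kinase that shuts off pyruvate dehydrogenase, fell in every line under each siRNA, beside 0.295% of genes tested in all 6 comparisons. Both comparisons of a line use the same siNS libraries. T47D had 29.9, 30.5 and 29.9 CPM with siNS, 18.8, 19.2 and 19.6 CPM with siTLE3 and 16, 16.6 and 16.8 CPM with siFOXA1. SKBR3 had 8.90, 9.48 and 11.6 CPM, 6.16, 5.17 and 5.54 CPM and 6.28, 6.50 and 6.02 CPM in the same order. MDA-MB-453 had 18.3, 18.8 and 20.8 CPM, 11.9, 12.8 and 14 CPM and 7.42, 6.72 and 9.40 CPM. In each line every silenced library lay below every control. For siTLE3 the log2 fold changes were -0.65 (SE 0.08), -0.81 (SE 0.19) and -0.59 (SE 0.11) in T47D, SKBR3 and MDA-MB-453 (edgeR adjusted p = 9.06e-06, 0.0418 and 0.000715). For siFOXA1 they were -0.88 (SE 0.08), -0.64 (SE 0.15) and -1.30 (SE 0.13) (edgeR adjusted p = 9.9e-07, 0.0202 and 1.71e-07). The SKBR3 siTLE3 call was lost whichever library was left out (adjusted p 0.0606 to 0.191), and the SKBR3 siFOXA1 call without any 1 siFOXA1 library (0.0771 to 0.0907). PDK1, a related kinase and hypoxia target, passed in none of the 6, with log2 fold changes from -0.07 (SE 0.14) in MDA-MB-453 siFOXA1 to 0.26 (SE 0.11) in T47D siTLE3.

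PFKFB3, which makes the sugar phosphate that activates phosphofructokinase, rose in T47D and MDA-MB-453 under both siRNAs. It had 154, 155 and 152 CPM with siNS, 306, 309 and 284 CPM with siTLE3 and 329, 352 and 321 CPM with siFOXA1 in T47D. MDA-MB-453 had 40.1, 37.1 and 44.3 CPM, 57.5, 59 and 64.7 CPM and 76.3, 74.8 and 77 CPM. All silenced libraries of these lines exceeded their controls, with log2 fold changes of 0.97 (SE 0.06) and 1.11 (SE 0.07) in T47D and 0.57 (SE 0.08) and 0.91 (SE 0.08) in MDA-MB-453 (edgeR adjusted p = 3.33e-08, 1.82e-08, 0.00012 and 1.14e-08). In SKBR3 the log2 fold changes were 0.57 (SE 0.20) and -0.20 (SE 0.19) and did not pass (edgeR adjusted p = 0.135 and 0.512). PFKFB4, an isozyme of PFKFB3, fell in 4 comparisons. SKBR3 had 16.1, 16.2 and 16.2 CPM of PFKFB4 with siNS and 8.71, 8.27 and 7.83 CPM with siFOXA1, a clear gap, with a log2 fold change of -0.95 (SE 0.12) (edgeR adjusted p = 0.0016). It also fell in T47D, with log2 fold changes of -0.57 (SE 0.08) and -0.30 (SE 0.09) and in MDA-MB-453 under siFOXA1, with a log2 fold change of -0.53 (SE 0.12); the T47D siFOXA1 call was lost without siNS 4 (adjusted p = 0.0553).

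SLC2A1, the glucose transporter GLUT1, fell in T47D under both siRNAs and in SKBR3 under siFOXA1, and rose in MDA-MB-453 under siFOXA1. T47D had 124, 115 and 116 CPM with siNS, 59.8, 67.3 and 65.4 CPM with siTLE3 and 52.8, 52.8 and 53.3 CPM with siFOXA1. SKBR3 had 532, 506 and 578 CPM with siNS and 332, 329 and 347 CPM with siFOXA1. MDA-MB-453 had 84.6, 80.6 and 92.9 CPM with siNS and 153, 155 and 159 CPM with siFOXA1. No silenced library of these groups overlapped its controls. The log2 fold changes were -0.88 (SE 0.07) and -1.17 (SE 0.07) in T47D, -0.65 (SE 0.09) in SKBR3 and 0.86 (SE 0.07) in MDA-MB-453 (edgeR adjusted p = 9.18e-08, 1.32e-08, 0.00212 and 3.96e-09). SLC16A3 had 49, 43 and 49.1 CPM with siNS and 29.4, 28.8 and 30.1 CPM with siTLE3 in T47D. The log2 fold change was -0.67 (SE 0.08), with no overlap (edgeR adjusted p = 5.27e-06). SKBR3 instead had 145, 149 and 214 CPM with siNS and 319, 352 and 334 CPM with siFOXA1, where siNS 3 was the high control and still below every silenced library. The rise was 1.01 (SE 0.15) (edgeR adjusted p = 0.00319). SLC16A3 overlaps CSNK1D on the other strand, which fell by 0.42 on the log2 scale in T47D siTLE3 and did not pass in SKBR3 siFOXA1.

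Among HIF1A and its hydroxylases, EGLN3 had the largest change against control. HIF1A fell in T47D under siTLE3, with a log2 fold change of -0.21 (SE 0.07), with adjusted p = 0.0524 without siNS 2, and rose in MDA-MB-453 under siFOXA1, with a log2 fold change of 0.42 (SE 0.07) (edgeR adjusted p = 3.48e-05). EGLN1, the main prolyl hydroxylase of HIF1A, had 68.1, 64 and 62.5 CPM with siNS and 89.3, 97.2 and 98.8 CPM with siFOXA1 in T47D. All silenced libraries were higher, with a log2 fold change of 0.55 (SE 0.07) (edgeR adjusted p = 2.34e-05). In MDA-MB-453 it rose under siFOXA1 (log2 fold change 0.25 (SE 0.07)) and fell under siTLE3 (log2 fold change -0.20 (SE 0.07)), the latter call lost without any 1 of 5 libraries. EGLN3 had 882, 987 and 1006 CPM with siNS, 1055, 1154 and 1067 CPM with siTLE3 and 374, 355 and 384 CPM with siFOXA1 in MDA-MB-453. The siFOXA1 libraries stood far below both other groups, with a log2 fold change of -1.37 (SE 0.07) (edgeR adjusted p = 1.31e-11), while siTLE3 gave 0.18 (SE 0.07), which did not pass (edgeR adjusted p = 0.0626). SKBR3 had 32.8, 33.1 and 32.4 CPM with siNS, 16.9, 16.6 and 19.6 CPM with siTLE3 and 18.5, 22.3 and 21.2 CPM with siFOXA1. Both groups fell without overlap, with log2 fold changes of -0.87 (SE 0.15) and -0.64 (SE 0.11) (edgeR adjusted p = 0.0139 and 0.00676), and the siTLE3 call was lost without siTLE3 2, siNS 1 or siNS 2 (adjusted p 0.0619 to 0.0998). In T47D siTLE3 it fell with a log2 fold change of -0.61 (SE 0.14). The annotated EGLN3 gene overlaps SPTSSA on the same strand, and SPTSSA changed by -2.27, -1.64 and -1.63 under siTLE3 in T47D, SKBR3 and MDA-MB-453 and by 0.50, 0.86 and 1.58 under siFOXA1, on the log2 scale; the part of shared reads in the EGLN3 values was not tested.

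Of the 9 hypoxia targets tested, 3 rose and 4 fell in T47D siTLE3, 2 rose and 5 fell in T47D siFOXA1, none rose and 1 fell in SKBR3 siTLE3, none rose and 2 fell in SKBR3 siFOXA1, 1 rose and 2 fell in MDA-MB-453 siTLE3, and 4 rose and 2 fell in MDA-MB-453 siFOXA1. As shares of the targets these are 77.8% under each siRNA in T47D, where 51.9% and 52.8% of all genes were called, 11.1% and 22.2% in SKBR3 (5.66% and 19.1%), and 33.3% and 66.7% in MDA-MB-453 (32% and 47.1%). ADM gave the largest change of any member against control. T47D had 13.4, 15.4 and 17.5 CPM with siNS, 85.8, 100.5 and 94.1 CPM with siTLE3 and 9.57, 8.43 and 10.6 CPM with siFOXA1. The siTLE3 libraries were far above and the siFOXA1 libraries below all controls, with log2 fold changes of 2.60 (SE 0.09) and -0.70 (SE 0.13) (edgeR adjusted p = 1.3e-10 and 0.000428). ADM did not pass in the other lines, where every library had under 5 CPM. VEGFA, the endothelial growth factor, had 83.1, 64.2 and 76 CPM with siNS and 40.1, 38.5 and 41.6 CPM with siTLE3 in T47D. It was lower in all silenced libraries, with a log2 fold change of -0.89 (SE 0.09) (edgeR adjusted p = 1.38e-06), also fell under siFOXA1, with a log2 fold change of -0.47 (SE 0.10), and rose in MDA-MB-453 under siFOXA1, with a log2 fold change of 0.36 (SE 0.09).

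NDRG1, a stress gene raised by hypoxia, fell in SKBR3 and T47D under both siRNAs and rose in MDA-MB-453 under siFOXA1. SKBR3 had 359, 380.4 and 369 CPM with siNS, 176, 201 and 207 CPM with siTLE3 and 108, 126 and 116 CPM with siFOXA1. The 3 groups were apart, with log2 fold changes of -0.91 (SE 0.13) and -1.64 (SE 0.10) (edgeR adjusted p = 0.00852 and 0.000131); the siTLE3 call was lost without siTLE3 2 (0.071) or siNS 2 (0.0508). MDA-MB-453 had 11.4, 7.91 and 11.3 CPM with siNS and 34.4, 33.4 and 36 CPM with siFOXA1. Every silenced library exceeded the highest control, a rise of 1.76 (SE 0.12) (edgeR adjusted p = 8.14e-10). Under siTLE3 in that line the log2 fold change was -0.43 (SE 0.16) and did not pass (edgeR adjusted p = 0.0571). In T47D the gene fell, with log2 fold changes of -0.39 (SE 0.09) and -0.39 (SE 0.11).

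P4HA2, a collagen prolyl hydroxylase subunit, rose in T47D and MDA-MB-453 under both siRNAs. T47D had 25.1, 29.3 and 27.4 CPM with siNS, 55.5, 55.1 and 57.8 CPM with siTLE3 and 53.8, 55.1 and 56.4 CPM with siFOXA1. MDA-MB-453 had 19.9, 19.3 and 20.2 CPM, 30.5, 29.9 and 30.6 CPM and 52.4, 52.3 and 55.1 CPM. Each silenced group lay above its controls, with log2 fold changes of 1.04 (SE 0.08), 1.01 (SE 0.08), 0.61 (SE 0.08) and 1.43 (SE 0.08) (edgeR adjusted p = 8.22e-08, 1.88e-07, 6.98e-05 and 5.14e-11). P4HA2 overlaps SLC22A4 on the other strand, which had under 10 CPM; SLC22A4 fell in MDA-MB-453 siTLE3 (log2 fold change -0.44), and in T47D its log2 fold changes were 0.85 and 0.81, the direction of P4HA2, without passing (edgeR adjusted p = 0.0816 and 0.0726). P4HA1, the partner isoform, fell in T47D, with log2 fold changes of -0.45 (SE 0.07) and -0.24 (SE 0.07), and under siFOXA1, with a log2 fold change of -0.49 (SE 0.09) in SKBR3 and -0.44 (SE 0.08) in MDA-MB-453; the SKBR3 call was lost without any 1 siFOXA1 library, and the T47D siFOXA1 call without siFOXA1 2 or siNS 4 (adjusted p 0.064 and 0.0533). BNIP3L, a mitophagy receptor, had 82.9, 83 and 75.1 CPM with siNS, 91, 103 and 99.7 CPM with siTLE3 and 129.6, 140.1 and 144 CPM with siFOXA1 in T47D. The groups did not overlap, and the rises were 0.29 (SE 0.07) and 0.77 (SE 0.07) (edgeR adjusted p = 0.00268 and 1.1e-06). MDA-MB-453 siFOXA1 also had a rise, of 0.70 (SE 0.08), while its relative BNIP3 fell there, with a log2 fold change of -0.41 (SE 0.07). KDM3A, a histone demethylase, had 70.0, 74.5 and 68.7 CPM with siNS and 54.4, 48.6 and 51.2 CPM with siTLE3 in MDA-MB-453. It was lower in each silenced library, with a log2 fold change of -0.48 (SE 0.07) (edgeR adjusted p = 0.000206), and fell in T47D, with log2 fold changes of -0.50 (SE 0.07) and -0.22 (SE 0.08), the latter call lost without any 1 of 5 libraries. ANKRD37 passed in no comparison with siNS.

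**Figure D3:**
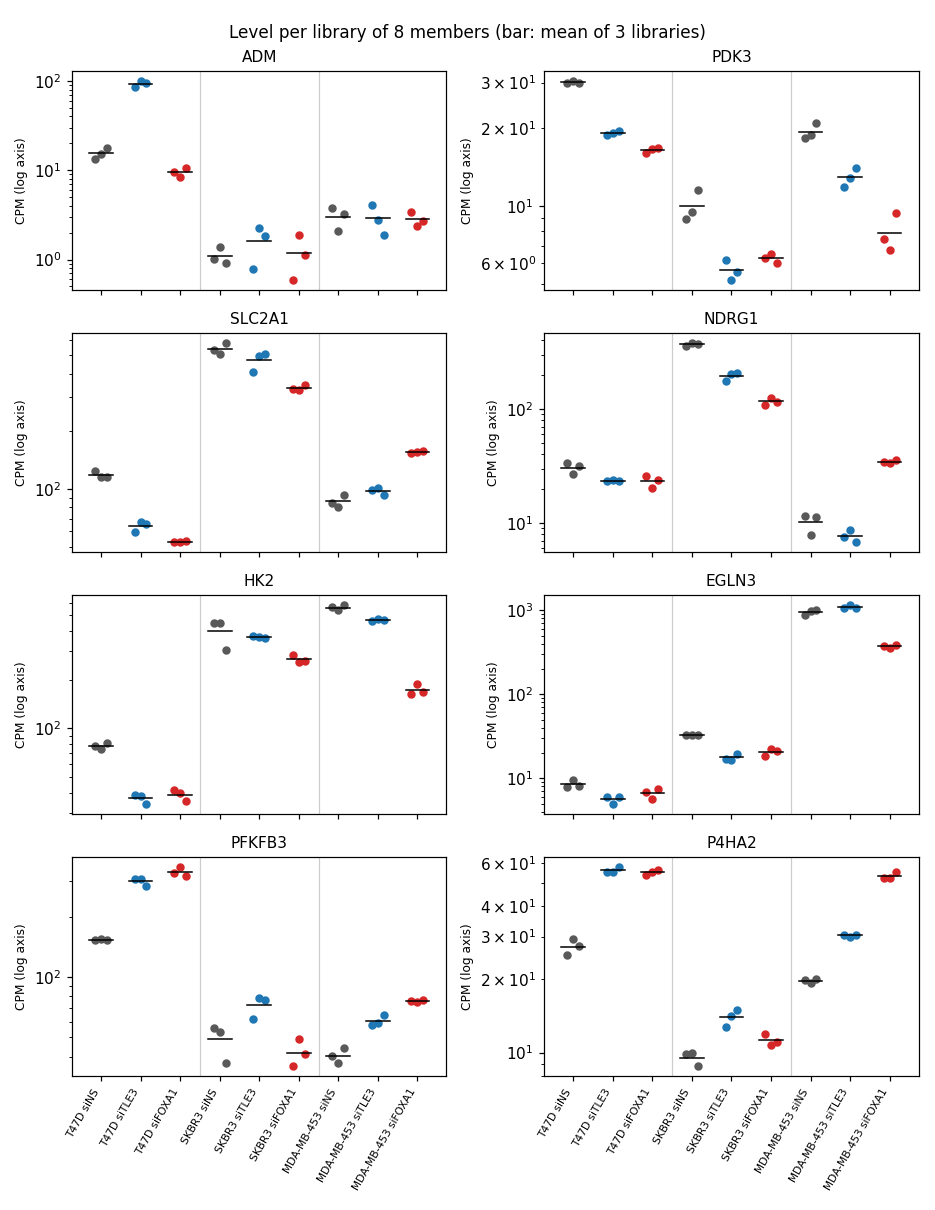
Level of 8 members in each library as CPM on a log axis, by line and siRNA (grey siNS, blue siTLE3, red siFOXA1), with a bar at the mean of the 3 libraries. ADM reaches 85.8 to 100.5 CPM in T47D siTLE3, NDRG1 falls in SKBR3 and rises in MDA-MB-453 siFOXA1, and P4HA2 and PFKFB3 rise in T47D and MDA-MB-453.

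Under siFOXA1, HK2, PFKM, PFKFB4, PDK3 and P4HA1 fell in all 3 lines, which is 5 members; among 12434 genes tested in all 3 lines, 3.8% fell in each. Without any 1 of the SKBR3 siFOXA1 libraries only PFKFB4 of the 5 was left, and the PFKFB4 call in T47D was itself lost without siNS 4 (adjusted p = 0.0553). With siTLE3, PDK3 fell in all 3 lines, a call lost in SKBR3 whichever library was left out, beside 1.19% of genes tested in all 3. None of the members rose in all 3 lines, beside 2.51% of genes under siTLE3 and 4.27% under siFOXA1.

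The 2 siRNAs were also compared directly within each line. In T47D, 5 members were higher and 13 lower with siTLE3 than with siFOXA1 (44.3% of all genes tested were called, 22.5% higher and 21.8% lower). That count of 18 was 10 without siFOXA1 2 (6120 of 16581 genes called). It was 11 without siFOXA1 1, siTLE3 1 or siTLE3 3 (5787 to 6271 genes called). SKBR3 had 5 higher and 1 lower of 34 tested (20% of all genes, 10.7% higher and 9.24% lower). This count of 6 was 3 without siFOXA1 2 (1393 of 14443 genes called) and 11 without siTLE3 1 (5732 of 14792 genes called). MDA-MB-453 had 8 higher and 12 lower of 33 (53.1%, 27% higher and 26.1% lower). ADM, with the library values above, differed most in T47D, with a log2 fold change of 3.32 (SE 0.10) (edgeR adjusted p = 9.52e-10). SLC16A3 had 29.4, 28.8 and 30.1 CPM with siTLE3 and 43.7, 43.2 and 44.1 CPM with siFOXA1 in T47D, and the siTLE3 libraries were lower, with a log2 difference of -0.54 (SE 0.07) (edgeR adjusted p = 9.04e-05). GPI, which follows hexokinase in the pathway, had 137, 150.3 and 158 CPM and 230.1, 219 and 218 CPM in the same groups, without overlap, a log2 difference of -0.56 (SE 0.08) (edgeR adjusted p = 0.000102). In SKBR3 the log2 difference siTLE3 minus siFOXA1 was 0.74 (SE 0.10) for NDRG1, -1.20 (SE 0.21) for SLC16A3 and 0.79 (SE 0.14) for PFKFB3 (edgeR adjusted p = 0.00126, 0.00372 and 0.0047). In MDA-MB-453 it was 1.56 (SE 0.05) for EGLN3, 1.44 (SE 0.06) for HK2 and -2.17 (SE 0.10) for NDRG1 (edgeR adjusted p = 1.3e-16, 2.14e-15 and 2.29e-14).

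Whether an siRNA acted differently in the 3 lines was tested with the line-by-siRNA terms over 18 libraries. For siTLE3, 9 of 35 members differed between lines, beside 12.1% of all genes. Without the SKBR3 libraries that stood apart 15 members did, beside 4361 of 16679 genes. ADM, EGLN3 and SLC2A1 had the smallest p (edgeR adjusted p = 0.000167, 0.00021 and 0.000232). For siFOXA1, 18 of 35 differed, beside 33.8% of all genes, led by NDRG1, SLC2A1 and P4HA2 (edgeR adjusted p = 1.13e-10, 1.37e-10 and 2.88e-06). SLC2A1 under siFOXA1 fell in T47D and SKBR3 and rose in MDA-MB-453, and NDRG1 fell in T47D and SKBR3 and rose in MDA-MB-453.

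Ratios of related genes within a library do not depend on library scaling. They were computed per length in 10 pairs where both genes had at least 10 reads in every library of the line, which gave 52 comparisons. With 3 against 3 libraries the smallest exact permutation p is 0.1, 0.118 after Benjamini-Hochberg adjustment over the 52, so no ratio can pass. The silenced and control libraries did not overlap in 44 of the 52, so a lack of overlap is common among these ratios. Overlap was not counted for other gene pairs, so whether it is particular to these pairs was not tested. P4HA2 over P4HA1 had a mean log2 ratio of -1.39 ± 0.145 (SD) in T47D controls, 0.10 ± 0.022 with siTLE3 and -0.14 ± 0.057 with siFOXA1. In MDA-MB-453 it was -2.17 ± 0.083, -1.49 ± 0.068 and -0.29 ± 0.172, and in SKBR3 -4.59 ± 0.058, -3.82 ± 0.327 and -3.84 ± 0.09. The silenced libraries had the higher ratio without overlap in each of the 6 comparisons, which share the siNS libraries of a line. PFKFB4 over PFKFB3 was lower without overlap in the 6 comparisons, with log2 differences from -0.76 in SKBR3 siFOXA1 to -1.53 in T47D siTLE3. PDK3 over PDK1 was lower without overlap in the 6 too, with log2 differences from -0.65 in MDA-MB-453 siTLE3 to -1.21 in MDA-MB-453 siFOXA1. PFKP over PFKL was higher without overlap in the 6, with log2 differences from 0.12 in T47D siTLE3 to 0.45 in SKBR3 siFOXA1. In T47D siTLE3 the gap was narrow, with 0.731 in the lowest siTLE3 library and 0.721 in the highest control. HK2 over HK1 differed most in MDA-MB-453 siFOXA1, -1.63 ± 0.135 against -0.08 ± 0.099 in controls.

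**Figure D4:**
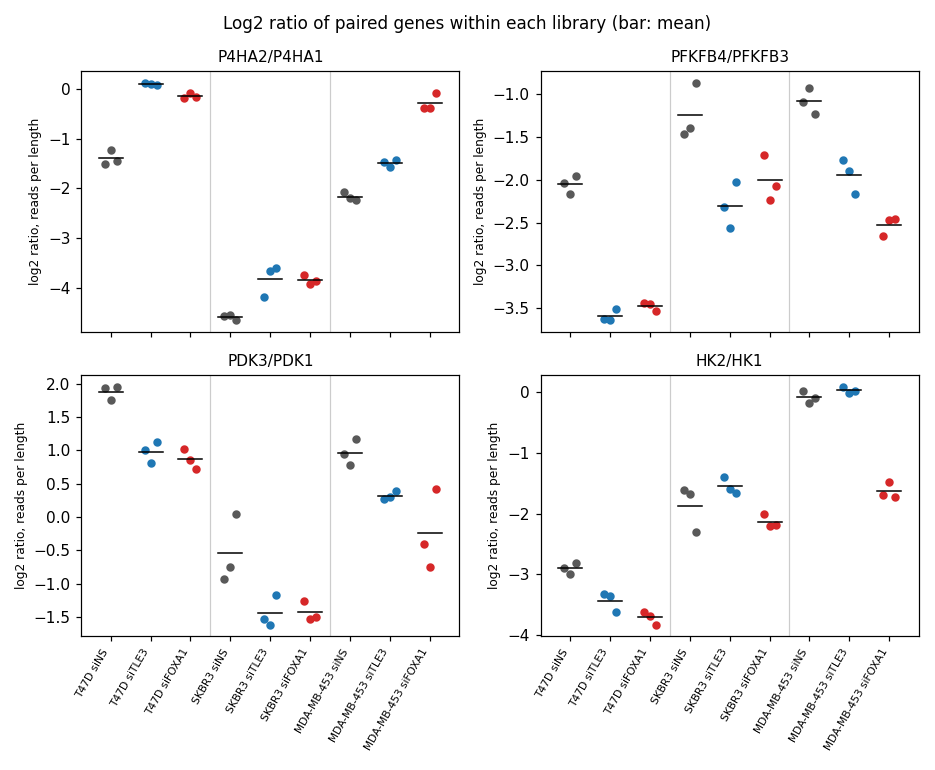
Log2 ratio of reads per length of 4 gene pairs in each library, by line and siRNA (grey siNS, blue siTLE3, red siFOXA1), with a bar at the mean of the 3 libraries. P4HA2 over P4HA1 is higher, and PFKFB4 over PFKFB3 and PDK3 over PDK1 are lower, in silenced than in control libraries of each line, while HK2 over HK1 drops most in MDA-MB-453 siFOXA1, to -1.63.

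Neighbouring pathway genes outside the 36 were read in the same fits. Among 34 other genes of glycolysis and pyruvate, 8 rose and 9 fell of 24 tested in T47D siTLE3, 7 and 6 in T47D siFOXA1, 1 and 0 of 26 in SKBR3 siTLE3, 2 and 4 in SKBR3 siFOXA1, 4 and 4 of 24 in MDA-MB-453 siTLE3, and 7 and 6 in MDA-MB-453 siFOXA1. In that order of comparisons 70.8%, 54.2%, 3.85%, 23.1%, 33.3% and 54.2% of them were called, beside 51.9%, 52.8%, 5.66%, 19.1%, 32% and 47.1% of all genes. SLC16A1, a lactate and pyruvate transporter of the family of SLC16A3, rose in each line under each siRNA, from 2.14 to 12 CPM in T47D siTLE3, 2.14 to 10.6 CPM in T47D siFOXA1, 0.605 to 4.13 CPM in SKBR3 siTLE3, 0.605 to 8.49 CPM in SKBR3 siFOXA1, 2.62 to 13.1 CPM in MDA-MB-453 siTLE3 and 2.62 to 12.5 CPM in MDA-MB-453 siFOXA1. Its log2 fold changes ran from 2.24 (SE 0.21) in MDA-MB-453 siFOXA1 to 3.82 (SE 0.30) in SKBR3 siFOXA1. Of genes tested in all 6 comparisons 1.51% rose in each, and both comparisons of a line use the same siNS libraries. SLC2A10, another glucose transporter, fell under siFOXA1 in T47D, with a log2 fold change of -1.81 (SE 0.17), in SKBR3, with a log2 fold change of -0.94 (SE 0.17) and in MDA-MB-453, with a log2 fold change of -1.31 (SE 0.09). PDK4, a kinase raised by fasting, rose in T47D siTLE3 from 0.952 to 4.29 CPM.

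Pentose phosphate genes, of which 8 of 9 were tested, rose and fell in 2 and 3 cases in T47D siTLE3, 4 and 0 in T47D siFOXA1, 1 and 0 under each siRNA in SKBR3, 2 and 3 in MDA-MB-453 siTLE3, and 4 and 2 in MDA-MB-453 siFOXA1. The shares called, 62.5%, 50%, 12.5%, 12.5%, 62.5% and 75%, stand beside the same 6 shares of all genes. H6PD, the glucose-6-phosphate dehydrogenase of the endoplasmic reticulum, rose from 14.8 to 42.8 CPM (T47D) and 33.7 to 68 CPM (MDA-MB-453) under siFOXA1. RPIA, which isomerises ribose phosphate, rose under siFOXA1 with log2 fold changes of 1.31 (SE 0.15), 1.03 (SE 0.13) and 1.16 (SE 0.12) in T47D, SKBR3 and MDA-MB-453. In the hypoxia factor machinery, 3 rose and 6 fell of 13 in T47D siTLE3, 1 and 4 in T47D siFOXA1, none of 14 passed in SKBR3 under either siRNA, 1 and 4 of 12 in MDA-MB-453 siTLE3, and 2 and 2 in MDA-MB-453 siFOXA1, which is 69.2%, 38.5%, 0%, 0%, 41.7% and 33.3% called beside those shares. EPAS1, the gene of the HIF1A relative HIF-2 alpha, fell in T47D siTLE3 from 372 to 199 CPM and in MDA-MB-453 siTLE3 from 112 to 69.6 CPM, and rose in MDA-MB-453 siFOXA1 from 112 to 155 CPM.

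Among 35 other hypoxia targets, 10 rose and 11 fell of 35 in T47D siTLE3, 10 and 10 in T47D siFOXA1, 3 and 2 of 31 in SKBR3 siTLE3, 5 and 2 of 32 in SKBR3 siFOXA1, 5 and 10 of 29 in MDA-MB-453 siTLE3, and 14 and 10 of 29 in MDA-MB-453 siFOXA1. The shares called were 60%, 57.1%, 16.1%, 21.9%, 51.7% and 82.8%, beside 51.9%, 52.8%, 5.66%, 19.1%, 32% and 47.1% of all genes. Under siTLE3, STC1, a secreted glycoprotein, fell from 38 to 10.3 CPM (T47D) and 19.9 to 6.17 CPM (MDA-MB-453). In SKBR3 it was at 1.45 CPM with siNS and 0.266 CPM with siTLE3. At that level it passed the filter only through the controls, so its call there was fixed by the filter. HMOX1, the haem oxygenase also raised by oxidative stress, rose under siFOXA1 from 14 to 48.6 CPM (T47D), 79.7 to 178 CPM (SKBR3) and 61.1 to 514 CPM (MDA-MB-453), and fell in MDA-MB-453 siTLE3 from 61.1 to 28.3 CPM. CA12, a carbonic anhydrase of estrogen receptor positive cells, rose in T47D siTLE3 from 331 to 1010 CPM. DDIT4, an inhibitor of mTOR signalling, rose under siFOXA1 from 18.7 to 56.5 CPM in SKBR3 and 22.5 to 95 CPM in MDA-MB-453, and PLOD2, a collagen lysyl hydroxylase, rose under siTLE3 from 36.9 to 79.6 CPM in SKBR3 and 25.1 to 52.3 CPM in MDA-MB-453.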

How the data were processed

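RNA sequencing of 27 libraries gave read counts per gene. The deposited read counts are whole numbers per gene, not normalised, per the file headers. STAR 2.5, HTSeq 0.6.1, DESeq2 and hg19 are named, per the submitters' processing notes, without the step each served; the strand setting of the counting is not given in the sources used here. The deposited tables also hold FPKM values, normalised signal values, log2 fold changes and p-values made by the authors, which were not used. Columns of 3 groups (siNS of T47D and of MDA-MB-453, siTLE3 of T47D) could be tied to their group and not to a numbered sample, and the 30 FPKM and normalised columns of these groups were mapped to no sample. Each siNS library had the same counts in both tables of its line.

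Counts were tested with edgeR 4.0.16 quasi-likelihood F tests in R 4.3.3 (TMM factors, filterByExpr, Benjamini-Hochberg over all genes, threshold 0.05) on the 6 libraries compared; line-by-siRNA terms used 18. SE is the absolute log2 fold change over the square root of F. CPM values use TMM factors over all 27 libraries, and CPM per kb divides them by the deposited gene length. The fits were tested on simulated data. Promoters came from RefSeq GRCh38.p14. Alternatives were RLE factors, no filter, DESeq2 1.42.0, a fit of 9 libraries, a replicate block, each library left out, both SKBR3 libraries that stood apart left out, and 1 read added to each gene of a pair. Deviations of same-numbered SKBR3 siTLE3 and siFOXA1 libraries correlated at 0.285, 0.161 and 0.113, but siTLE3 3 correlated at 0.238 with siFOXA1 2. These values do not establish pairs, and the main fits were unpaired. In that comparison 6 members were called with and without the block.

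Library by library values are given mainly for the members with the largest rises and falls against siNS among those passing, with at least 1 CPM and no overlap; further named are the 3 smallest p between siRNAs and between lines, the 3 largest changes between control lines, and up to 3 passing genes per other list. Other members named with values were chosen after those values were seen. The members and lists were chosen with earlier results of these data known. Library totals limit the precision of genes with few reads.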

Additional observations from a re-analysis of the deposited data

Results flagged for a closer look

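The effect of siTLE3 on 9 members differed between the 3 lines by edgeR's test of the line-by-siRNA terms. The adjusted p was 0.00214 for HK2, 0.00212 for ALDOC, 0.000232 for SLC2A1, 0.0403 for EGLN1, 0.00021 for EGLN3, 0.00325 for VEGFA, 0.000167 for ADM, 0.00882 for BNIP3 and 0.027 for P4HA2. The effect of siFOXA1 differed between the lines for 18 members, with an edgeR adjusted p of 8.33e-05 for HK2, 0.00489 for PFKM, 0.0358 for ALDOA, 0.00486 for GAPDH, 0.0366 for PGK1, 0.007 for ENO1, 0.0219 for PKM, 0.000344 for LDHA, 1.49e-05 for PFKFB3, 0.0029 for PFKFB4, 1.37e-10 for SLC2A1, 0.000125 for SLC16A3, 0.0232 for PDK3, 3.82e-05 for EGLN3, 0.00238 for VEGFA, 1.13e-10 for NDRG1, 0.000144 for BNIP3L and 2.88e-06 for P4HA2. Beside these counts stand 12.1% of all genes for siTLE3 and 33.8% for siFOXA1, and the log2 fold changes of the members in each line are given in the results. No group holds more than 3 libraries, so single libraries far from their group were not tested for. The part in the siTLE3 differences of SKBR3 siNS 3 and SKBR3 siTLE3 1, the libraries that stood apart, was read from the fit without them. There 15 members differed for siTLE3, beside 4361 of 16679 genes. With each library left out in turn, 7 to 11 members differed for siTLE3 and 14 to 25 for siFOXA1. The lowest siFOXA1 count was without SKBR3 siFOXA1 2. Calls over all genes in those fits are not given here.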

How the results depend on the processing

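In SKBR3 siTLE3 against siNS, 4 members were called (814 of 14382 genes), and 9 with DESeq2 (1651 of 14382 genes). There were 9 in the fit of the 9 libraries of the line (1962 of 14876 genes) and 13 with the replicate block (3698 of 14382 genes). Without both libraries that stood apart there were 16 (4161 of 14514 genes). Without those libraries SKBR3 siFOXA1 against siNS gave 21 in place of 10 (6675 of 14776 genes in place of 2746 of 14361). SKBR3 siTLE3 against siFOXA1 then gave 11 in place of 6 (5732 of 14792 genes in place of 2836 of 14195). The siTLE3 difference between lines then gave 15 in place of 9 (4361 of 16679 genes in place of 1983 of 16336). In the same fits SLC16A3 in SKBR3 siTLE3 turned from a log2 fold change of -0.21 to 0.2183 (edgeR adjusted p = 0.0314), LDHB in SKBR3 siFOXA1 from -0.0014 to 0.1023 (edgeR adjusted p = 0.0311), and the SKBR3 siTLE3 median was -0.0824; the cause was not tested. With no low-count filter the member medians were -0.1615 in T47D siFOXA1 and -0.0227 in MDA-MB-453 siFOXA1.

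Leaving out each library in turn, the SKBR3 siTLE3 count ranged from 0 to 3, SKBR3 siFOXA1 from 6 to 21, T47D siTLE3 against siFOXA1 from 10 to 15 and SKBR3 siTLE3 against siFOXA1 from 3 to 11. Calls over all genes moved too, in SKBR3 siFOXA1 to 1266 of 14759 without siFOXA1 3 and 6675 of 14776 without siNS 3. Member medians ranged from -0.3547 to -0.214 in T47D siTLE3, from -0.2006 to -0.1629 in T47D siFOXA1, from -0.2915 to -0.136 in SKBR3 siTLE3, from -0.2681 to -0.1295 in SKBR3 siFOXA1, from -0.1036 to -0.0453 in MDA-MB-453 siTLE3 and from -0.1255 to 0.0013 in MDA-MB-453 siFOXA1, and LDHB in SKBR3 siFOXA1 from -0.0542 to 0.1023. Calls kept with each library left out were 21 of 24 and 18 of 25 in T47D, 0 of 4 and 6 of 10 in SKBR3, and 11 of 15 and 21 of 22 in MDA-MB-453, for siTLE3 and siFOXA1.

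Deviations of same-numbered libraries correlated at 0.718, -0.364 and 0.802 in SKBR3 siTLE3 and siNS. There siTLE3 1 also correlated at 0.65 with siNS 2, and siTLE3 2 at 0.411 with siNS 3. The values were 0.26, -0.215 and 0.063 in SKBR3 siFOXA1 and siNS. They were -0.063, 0.05 and -0.089 in MDA-MB-453 siTLE3 and siFOXA1. Whether same-numbered libraries are pairs cannot be told from these values. With the replicate block the counts of members called in these comparisons were 13, 8 and 20, in that order, and 6 in SKBR3 siTLE3 against siFOXA1. In no other pair of groups within a line did all column numbers match, and pairs of groups that share only some numbers were not checked.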
